A study of Mus musculus with 9 samples.

Results

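The hairpin Brg1sh_3364 was compared with Brg1sh_3232 and Brg1sh_4935, the other short hairpins against Brg1 in this series. By their titles, 2 arrays hold Brg1sh_3364 and 4 hold the others, 2 for each, so that 6 of the 9 arrays in the series enter the contrast. It was the mean of Brg1sh_3364 minus the equally weighted means of the others. The remaining 3 arrays hold a hairpin against Renilla luciferase, an enzyme that mouse cells lack. They served as a reference level and entered the estimate of spread shared by all groups, but no log2 difference between Brg1 hairpins. All 9 arrays are of RN2, a single mouse acute myeloid leukaemia line driven by MLL-AF9 and NrasG12D. The cells were transduced with the inducible vector TRMPV, and 1 ug/ml doxycycline switched the hairpin on for 96 h before RNA was taken. The Brg1 arrays share all of these terms, and only the number of the hairpin in their titles sets them apart. The control arrays carry the further term TtTMPV in the name of their line, which the Brg1 arrays lack. That difference touches the reference level and not the log2 differences among Brg1 hairpins, whose p-values use the spread of all 9 arrays. The series asked which genes lie downstream of Brg1 in this leukaemia, and several hairpins against a target show how far a response is shared between them.

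Brg1, encoded by Smarca4, is an ATPase that drives the SWI/SNF complex, which slides and evicts nucleosomes at enhancers and promoters. In MLL-rearranged leukaemia SWI/SNF is known for holding Myc on through distal enhancers and for keeping blasts from maturing into macrophages or granulocytes. Short hairpin RNAs are processed into small guide strands that lower the target mRNA.

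Values are log2 expression after RMA, which corrects background, aligns the arrays and summarises the probes of each set. Array medians lay between 7.39 and 7.49, arrays of a group correlated at 0.996 to 0.997 over probe sets and those of different Brg1 hairpins at 0.992 to 0.995, and the number of arrays limits the precision. A gene was called when its limma p, adjusted over all 19937 genes, was below 0.05. The labels do not say whether the arrays of a hairpin stem from separate cultures. A p-value therefore measures the spread between these samples alone, and that spread may be technical. The cells had the markers of their label: Ptprc, the pan-leukocyte antigen, lay between 12.2 and 12.6, Kit between 11.69 and 11.95, and the granule protease gene Elane between 13.3 and 13.9. The median gene stood at 7.80. T cell, B cell and erythroid markers were below it, with Cd3e at 6.87 to 7.17, Pax5 at 6.79 to 6.90 and Klf1 at 6.86 to 7.13. RNA was taken in bulk, so a change in the share of cells of one kind and a change in RNA per cell cannot be told apart.

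The loss of the target's mRNA was similar across the Brg1 hairpins. Smarca4 stood at 10.78 and 10.81 on the arrays of Brg1sh_3364, at 10.67 and 10.90 with Brg1sh_3232, at 10.70 and 10.76 with Brg1sh_4935, and at 11.79, 11.77 and 11.79 in the controls. The arrays of Brg1sh_3232 spanned those of both other Brg1 hairpins, and Brg1sh_3364 lay slightly above Brg1sh_4935. All 6 knockdown arrays lay below every control. The difference between Brg1sh_3364 and the others was 0.03 (log2, SE 0.06), with a limma adjusted p of 0.788. Its Smarca4 signal was thus 102.4% of theirs (95% interval 93.0 to 112.8), and a difference within these bounds was not excluded. These are mRNA values, and the arrays do not measure Brg1 protein. Smarca2, which encodes the alternative ATPase Brm, differed by 0.04 (SE 0.06, adjusted p = 0.756). Of 31 measured SWI/SNF subunit genes, 2 were called higher with Brg1sh_3364, a share near the 6.35% of all genes called higher. These were Brd9 by 0.36 (SE 0.07) and Bcl7c by 0.20 (SE 0.04). No subunit gene was called lower. Both calls were lost without either Brg1sh_3364 array, with adjusted p up to 0.0787.

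At this similar loss of Smarca4 mRNA, 2103 of 19937 genes (10.5%) were called between Brg1sh_3364 and the other hairpins, 1266 higher (6.35%) and 837 lower (4.2%). Most of these differences were small. The median absolute log2 difference among called genes was 0.32, and 37 genes were at least 2-fold higher and 18 at least 2-fold lower. The 2 arrays of Brg1sh_3364 lay outside all 4 others for 2044 of the called genes and for 6186 of all genes (31%). In contrasts of the same form, Brg1sh_3232 had 994 called genes (4.99%) against the mean of its partners, 411 higher (2.06%) and 583 lower (2.92%). Brg1sh_4935 had 572 (2.87%), 308 higher (1.54%) and 264 lower (1.32%). Between Brg1sh_4935 and Brg1sh_3232 directly the count was 204 (1.02%), 122 higher (0.612%) and 82 lower (0.411%). These contrasts reuse the same 6 arrays, and the differences between their counts were not tested. Against single hairpins, 1925 genes (9.66%) were called relative to Brg1sh_3232, 1159 higher (5.81%) and 766 lower (3.84%), and 1518 (7.61%) relative to Brg1sh_4935, 900 higher (4.51%) and 618 lower (3.1%). Both called 934 genes in the same direction (4.68%), 600 higher and 334 lower, and 2 genes in opposite directions. The count rests on both arrays of the hairpin: it was 699 without replicate 1 of Brg1sh_3364 and 1026 without replicate 2, where the lone array is assumed to vary as the other groups do. It was 1334 and 1309 without replicates 1 and 2 of Brg1sh_4935. Higher calls made up 60.2% of the total, but 71.9% after median centring and 52.6% after quantile normalization of the deposited values.

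**Figure D1:**
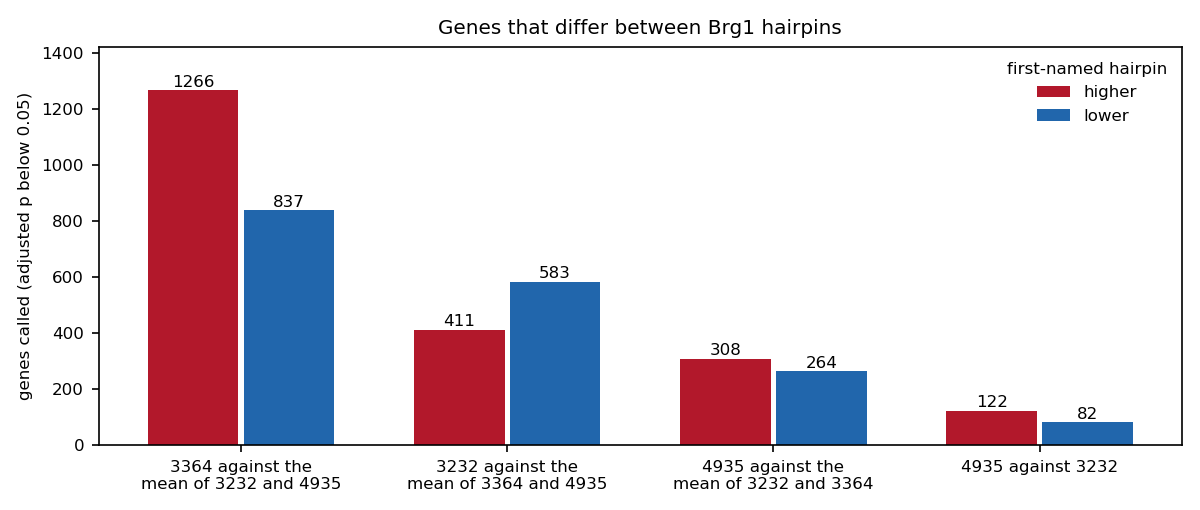
Bars give the number of genes called (limma adjusted p below 0.05) as higher or lower with the first-named hairpin, in contrasts among the 6 Brg1 knockdown arrays. The contrast of Brg1sh_3364 has 1266 higher and 837 lower genes, that of Brg1sh_4935 against Brg1sh_3232 has 122 and 82.

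Set beside the Renilla reference, the called genes fell into several kinds. With Brg1sh_3364 5133 genes (25.7%) were called against the control, 2707 higher (13.6%) and 2426 lower (12.2%). With the mean of the others 5118 (25.7%) were called, 2252 higher (11.3%) and 2866 lower (14.4%); both comparisons use the same 3 control arrays. Higher calls made up 44% of the latter count, and 34% with arrays centred on their medians. Of the 2103 genes, 711 (33.8%) were called against the control with Brg1sh_3364 alone, 498 of them higher than with the other hairpins. A further 515 (24.5%) changed the same way under both, and further with Brg1sh_3364. Next, 441 (21%) were called against the control with the other hairpins alone, and 207 (9.84%) changed the same way in both but less with Brg1sh_3364. The mean of the others rests on 4 arrays and Brg1sh_3364 on 2, so the 441 are not a count of absent responses. Prrg4, for example, is among them with a change of 0.86 from the control with Brg1sh_3364 (limma adjusted p = 0.0745). The remaining genes were called in neither comparison (167) or in opposite directions (62). The members of each kind are defined by the same values as the contrast, so these counts describe it and add no test.

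Genes raised further or newly with Brg1sh_3364 included granule, kinase and transport genes. Prg2, the major basic protein of eosinophil granules, stood at 11.004 and 10.89 with Brg1sh_3364, at 8.53 and 8.59 with Brg1sh_3232, at 8.52 and 8.52 with Brg1sh_4935, and at 7.64, 7.67 and 7.51 in the controls. Only the 2 Brg1sh_3364 arrays exceeded 10, and the other hairpins lay close together between it and the control, with a called change of 0.93 from the control. Prg2 was 5.31-fold higher than with the other hairpins (log2 difference 2.41, SE 0.06, limma adjusted p = 3.1e-07). It was the sole higher call among 25 measured mast cell, basophil and eosinophil genes, of which 3 were called lower (1 without either Brg1sh_3364 array). Over all genes 6.35% were called higher and 4.2% lower. Lrrk2, a large kinase with leucine-rich repeats, stood at 10.24 and 10.30 with Brg1sh_3364, at 7.66 and 7.82 with Brg1sh_3232 and at 8.56 and 8.39 with Brg1sh_4935. All hairpins differed here and Brg1sh_3364 was highest, by 2.16 against the mean of the others (SE 0.06); its second probe set differed by 0.56. Ak8, an adenylate kinase, stood at 10.73 and 10.76 with Brg1sh_3364 and between 8.96 and 9.08 with the others, a log2 difference of 1.71 (SE 0.08).

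Other large rises concerned receptors and transporters. Bmpr1a, a type I receptor for bone morphogenetic proteins, stood at 10.52 and 10.42 with Brg1sh_3364 and at 8.90, 8.94, 9.25 and 9.15 with the others, which overlapped the controls (8.97 to 9.37). It was higher by 1.41 (SE 0.10, limma adjusted p = 0.000119), and against the control it had a log2 change of 1.26 with Brg1sh_3364 and -0.15 with the others. Slco4c1 and Slco3a1, organic anion transporters, were higher by 1.61 (SE 0.11) and 1.45 (SE 0.07). Cntln, a centrosomal protein gene, was higher by 1.72 (SE 0.05), Ankrd22, with ankyrin repeats, by 1.57 (SE 0.13) and Gimap5, a GTPase of immune cells, by 1.40 (SE 0.15). Adgre4, an adhesion receptor of myeloid cells, stood at 7.85 and 7.74 against 6.46 to 6.69 on all 7 other arrays, a difference of 1.17 (SE 0.07). Chst15, a sulphotransferase, and the zinc finger gene Zfp831 had the same form, with differences of 1.16 (SE 0.11) and 1.15 (SE 0.08) and changes of 0.04 and 0.13 from the control with the other hairpins. The calls of all the genes in this paragraph and of Prg2, Lrrk2 and Ak8 held without each array in turn.

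Several of the largest falls concerned genes that the other hairpins raised. Mc5r, a melanocortin receptor, stood at 9.69 and 9.58 with Brg1sh_3364, at 11.09 and 11.15 with Brg1sh_3232, at 11.43 and 11.31 with Brg1sh_4935, and at 7.95, 8.50 and 9.01 in the controls. Brg1sh_3364 lay between the controls and the other hairpins without overlap, 3.06-fold below the latter (log2 difference -1.61, SE 0.22, limma adjusted p = 0.00246). Ifi207, an interferon-inducible nuclear protein gene, had a difference of -1.56 (SE 0.15). Gem, a small Ras-related GTPase, had a difference of -1.44 (SE 0.22), made up of -0.81 against Brg1sh_3232, not called (adjusted p = 0.0876), and -2.08 against Brg1sh_4935. Its call was lost without replicate 2 of Brg1sh_3364 (adjusted p = 0.0589). Havcr2, the checkpoint receptor Tim-3, had one of -1.24 (SE 0.21), made up of -0.61, not called (adjusted p = 0.157), and -1.87, and likewise lost without that array (adjusted p = 0.0749). Both calls were lost too with the other hairpins pooled as 1 group. Dpep2, a membrane dipeptidase, behaved otherwise. It stood at 8.43 and 8.34 with Brg1sh_3364 and at 9.29 to 9.73 on all 7 other arrays, so that the other hairpins matched the control and Brg1sh_3364 fell below it (difference -1.13, SE 0.10). The second probe set of Dpep2 differed by -0.71.

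**Figure D2:**
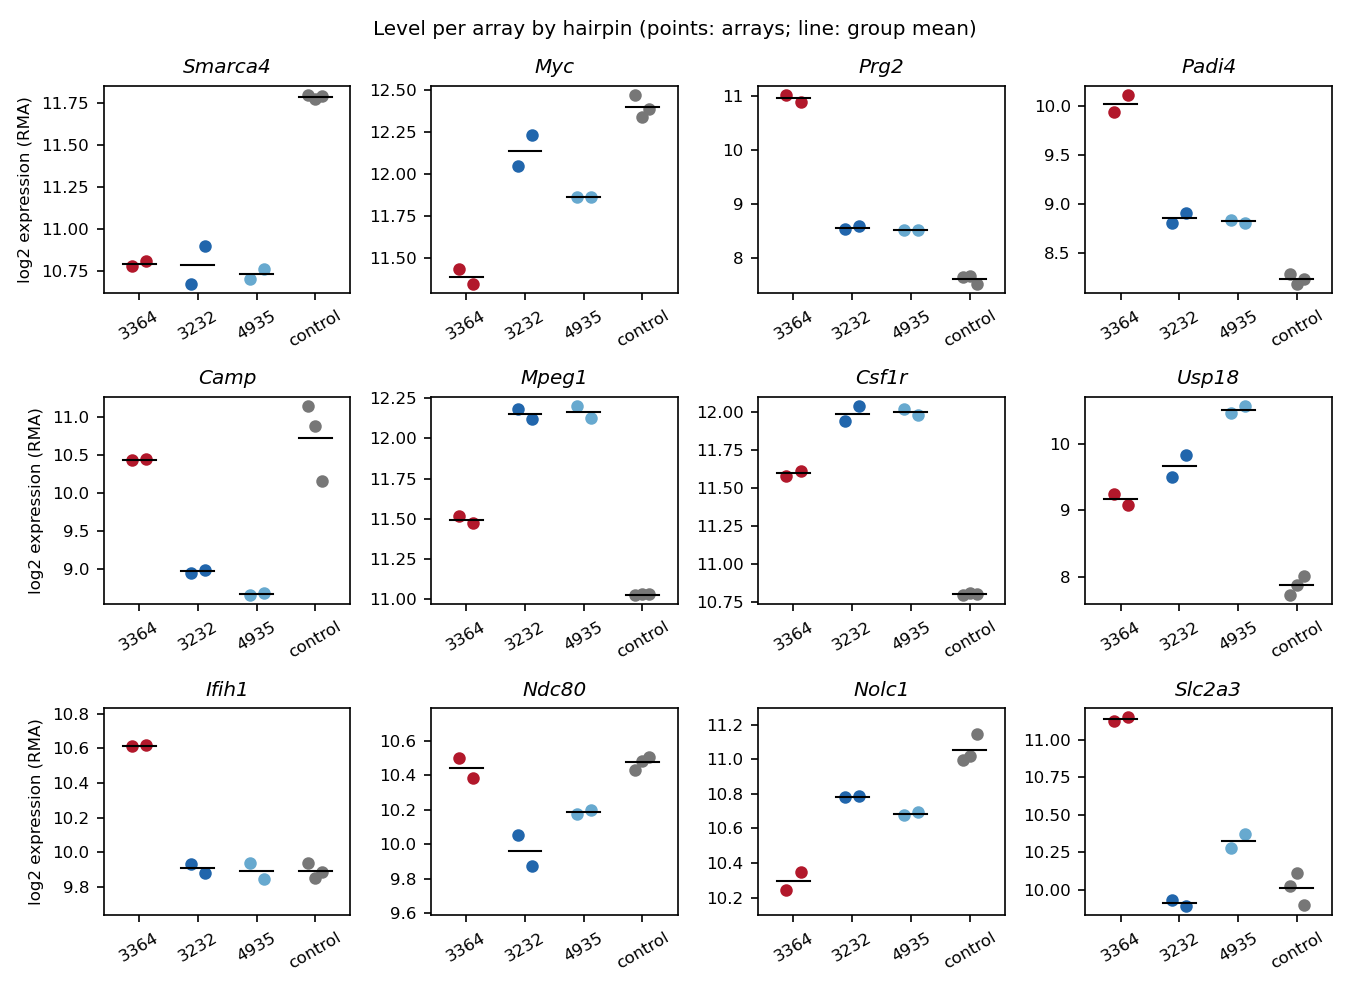
Points are single arrays and lines group means of log2 expression for 12 genes, by hairpin; each panel has its own axis. For Smarca4 the arrays of Brg1sh_3232 span those of both other Brg1 hairpins. Prg2, Padi4, Ifih1 and Slc2a3 are highest and Myc and Nolc1 lowest in the 2 arrays of Brg1sh_3364.

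Myc, the transcription factor that drives growth and ribosome production, was lower with Brg1sh_3364 than with the other hairpins. Its level was 11.43 and 11.34 with Brg1sh_3364, 12.05 and 12.23 with Brg1sh_3232, 11.86 and 11.86 with Brg1sh_4935, and 12.47, 12.34 and 12.39 in the controls. The groups did not overlap, and the order was Brg1sh_3364, Brg1sh_4935, Brg1sh_3232 and control from low to high. The log2 difference was -0.61 (SE 0.06, limma adjusted p = 0.000614), which is 1.53-fold. It was -0.75 against Brg1sh_3232 and -0.47 against Brg1sh_4935, both called. Pvt1, the noncoding gene next to Myc, had a difference of -0.46 (SE 0.13, limma adjusted p = 0.0547). Its second probe set, dim at a mean level of 3.75, differed by -0.01. Among 14 measured genes of Myc and the Max network, 2 were called higher, Mxd1 by 0.45 (SE 0.05) and Mxd3 by 0.38 (SE 0.08), which encode Max partners that oppose Myc. Mxd3 was not called without either Brg1sh_3364 array or without replicate 2 of Brg1sh_4935 (adjusted p up to 0.119). Myc was the only gene of the list called lower. Over all genes 6.35% were called higher and 4.2% lower.

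Ribosome biogenesis factors, which process and assemble ribosomal RNA in the nucleolus, were lower too. Of 43 measured genes, 10 were called lower with Brg1sh_3364 and 0 higher, against 4.2% and 6.35% of all genes. The median difference was -0.21 against -0.0048 over all genes. In 31 of the 43 the 2 arrays lay below all 4 others, where 14.1% of all genes did. From the control the median change was -0.56 with Brg1sh_3364 and -0.35 with the others. Nolc1, a nucleolar chaperone, stood at 10.25 and 10.35 with Brg1sh_3364, 10.78 and 10.79 with Brg1sh_3232, 10.68 and 10.69 with Brg1sh_4935, and 10.998 to 11.15 in the controls. Its difference was -0.44 (SE 0.05, limma adjusted p = 0.00155). Mybbp1a, a nucleolar Myb-binding protein, had one of -0.37 (SE 0.05) and Heatr1, of the small subunit processome, one of -0.36 (SE 0.05). Nop2, which methylates ribosomal RNA, had a difference of -0.38 (SE 0.07) and Gnl3, nucleostemin, one of -0.46 (SE 0.09). Both calls were lost without either Brg1sh_3364 array, and that of Gnl3 also without replicate 1 of Brg1sh_4935 (adjusted p up to 0.0819 and 0.112). The count of the list was 3 without replicate 1 of Brg1sh_3364, 3 without replicate 2, 5 without replicate 1 of Brg1sh_4935 and 6 without replicate 2 of Brg1sh_3232, and 20 after a further quantile normalization. The median stayed between -0.22 and -0.17 without each knockdown array.

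Anabolic enzymes moved in the same direction in smaller numbers. Of 31 measured genes for nucleotide, amino acid and polyamine synthesis, 6 were called lower and 0 higher, with a median of -0.08. Over all genes 4.2% were called lower and 6.35% higher. Impdh1, which commits purines to guanine nucleotides, had a difference of -0.60 (SE 0.07), and Phgdh and Psat1, of serine synthesis, had differences of -0.49 (SE 0.06) and -0.30 (SE 0.04). Phgdh changed by -1.53 from the control with Brg1sh_3364 and by -1.04 with the others. Srm, spermidine synthase, had a difference of -0.41 (SE 0.06), not called without replicate 2 of Brg1sh_3364 (adjusted p = 0.0554), without which the list had 3 calls. Of 21 cholesterol synthesis genes 1 was called higher, a share near the 6.35% of all genes, and 0 lower. It was Lss, lanosterol synthase, named after its value was seen, with a difference of 0.24 (SE 0.06), and its call was lost without any 1 of the 6 knockdown arrays or control replicate 1 (adjusted p up to 0.236).

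Late neutrophil genes, those of specific and tertiary granules and of the mature neutrophil surface, were higher with Brg1sh_3364. Of 39 measured members 20 were called higher and 0 lower, against 6.35% and 4.2% of all genes. The median difference was 0.27, and in 27 members both arrays lay above all 4 others, where 16.9% of all genes did. From the control the list's median change was 0.26 with Brg1sh_3364 and 0.07 with the others, and the mean level of the list was 11.53 to 11.55 with Brg1sh_3364, 11.12 to 11.21 with the others and 10.89 to 11.22 in the controls. Padi4, which citrullinates histones, stood at 9.94 and 10.11 with Brg1sh_3364, between 8.81 and 8.91 with the others and between 8.18 and 8.28 in the controls. It was higher by 1.18 (SE 0.06, limma adjusted p = 2.77e-05). Itgb2l, an integrin beta chain of neutrophils, was higher by 1.13 (SE 0.14) and Chil1, a chitinase-like granule protein, by 1.08 (SE 0.12). For these the other hairpins also stood above the control, and Brg1sh_3364 stood further above it.

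Camp, Lrg1 and Cebpe differed in the opposite manner, through what Brg1sh_3364 lacked. Camp, the cathelicidin precursor, stood at 10.43 and 10.45 with Brg1sh_3364, 8.95 and 8.98 with Brg1sh_3232, 8.65 and 8.68 with Brg1sh_4935, and 11.14, 10.89 and 10.16 in the controls. Brg1sh_3364 lay inside the range of the controls and the others far below it, a log2 difference of 1.62 (SE 0.21, limma adjusted p = 0.00192). Lrg1, a secreted glycoprotein of neutrophil granules, changed from the control by 0.15 with Brg1sh_3364 and by -0.99 with the others. Cebpe, the regulator of specific granule genes, changed by 0.02 and -0.34; its difference of 0.37 (SE 0.05) was not called without replicate 1 of Brg1sh_3364 (adjusted p = 0.0515). Pglyrp1, a peptidoglycan receptor, and Trem1, an activating receptor, were higher by 0.49 (SE 0.07) and 0.45 (SE 0.06). Ltf, lactoferrin, and Cd177 were higher by 0.44 (SE 0.08) and 0.65 (SE 0.10), calls lost without either Brg1sh_3364 array (adjusted p up to 0.0724 and 0.0563). Ly6g, the Gr-1 antigen, differed by 0.84 (SE 0.25) and was not called (adjusted p = 0.0707). The list had 7 higher calls without replicate 1 of Brg1sh_3364, 9 higher and 1 lower without replicate 2, and 16 or 17 without any other knockdown array, while its median stayed at 0.26 to 0.27.

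**Figure D3:**
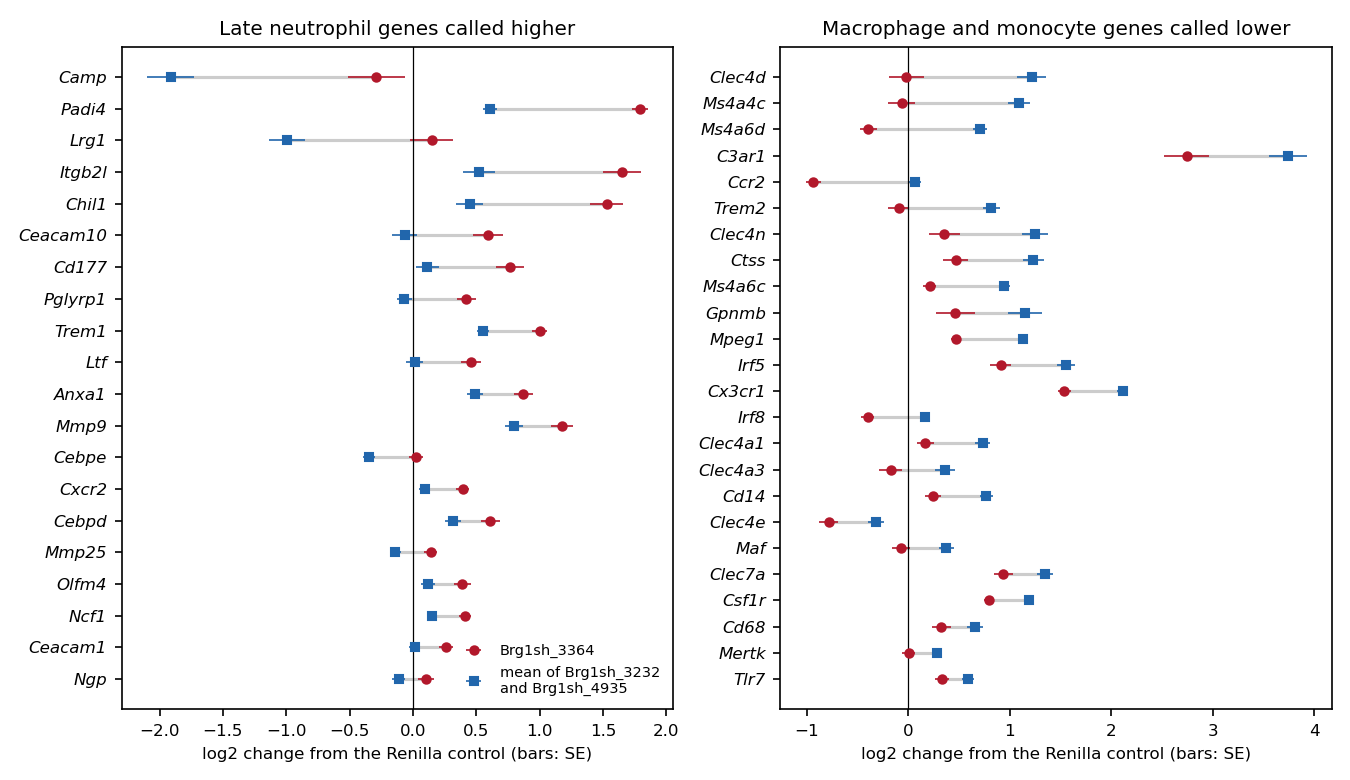
Log2 change from the Renilla control (x axis, bars SE) for the 20 late neutrophil genes called higher and the 24 macrophage and monocyte genes called lower between Brg1sh_3364 (red circles) and the mean of the other hairpins (blue squares). Camp and Lrg1 fall with the others and hardly change with Brg1sh_3364, Padi4 and Chil1 rise with both and further with Brg1sh_3364, and most macrophage genes rise less with Brg1sh_3364.

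Primary granule genes, which are made earlier in granulocyte development, and their regulators had no common direction. Of 16 members 4 were called higher and 4 lower, against 6.35% and 4.2% of all genes, with a median of -0.08. The higher calls included Cebpe, which is also on the late neutrophil list. The direction depended on the comparator. Against Brg1sh_3232 alone 3 were called higher and 6 lower (median -0.18), where 5.81% and 3.84% of all genes were. Against Brg1sh_4935 alone 5 were called higher and 2 lower (median 0.11), where 4.51% and 3.1% of all genes were. The higher calls fell to 1 without replicate 1 of Brg1sh_3364 and to 2 without any other knockdown array, and the lower calls to 2 without either Brg1sh_3364 array. Cst7, a cystatin, stood at 11.24 and 11.06 with Brg1sh_3364 against 11.51 to 12.08 with the others and 12.72 to 12.87 in the controls, a difference of -0.66 (SE 0.07). Cebpa, the regulator of early granulocyte genes, had a difference of -0.40 (SE 0.05, limma adjusted p = 0.00209). Prss57, a serine protease of azurophil granules, was higher by 1.12 (SE 0.12), with changes from the control of 0.57 with Brg1sh_3364 and -0.56 with the others. Mpo, myeloperoxidase, had a difference of -0.29 (SE 0.06) that came from Brg1sh_3232 alone. Its level was 12.76 and 12.71 with Brg1sh_3364, 13.36 and 13.38 with Brg1sh_3232, and 12.73 and 12.63 with Brg1sh_4935, so that Brg1sh_3364 and Brg1sh_4935 lay side by side. The call of Mpo was lost without either Brg1sh_3364 array (adjusted p up to 0.0993).

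Macrophage and monocyte genes were lower with Brg1sh_3364. Of 56 measured members 24 were called lower and 2 higher, against 4.2% and 6.35% of all genes, and the median difference was -0.20. Against Brg1sh_3232 alone 16 were called lower and 2 higher (median -0.16), where 3.84% and 5.81% of all genes were. Against Brg1sh_4935 alone 25 were called lower and 2 higher (median -0.345), where 3.1% and 4.51% of all genes were. From the control, 37 members were higher and 2 lower with the other hairpins (median 0.31), and 20 were higher and 5 lower with Brg1sh_3364 (median 0.12). In 32 members both arrays of Brg1sh_3364 lay below all 4 others, where 14.1% of all genes did. Mpeg1, a perforin-like protein of macrophages, stood at 11.51 and 11.47 with Brg1sh_3364, between 12.12 and 12.20 with the others and between 11.02 and 11.03 in the controls. Its difference was -0.66 (SE 0.04, limma adjusted p = 8.85e-05). Csf1r, the receptor for macrophage colony-stimulating factor, stood at 11.58 and 11.61, against 11.94 to 12.04 with the others and 10.79 to 10.80 in the controls, a difference of -0.40 (SE 0.04). Both hairpin groups thus exceeded the control, and Brg1sh_3364 by less. Cd14, the endotoxin co-receptor, had a difference of -0.52 (SE 0.07), Cx3cr1, the fractalkine receptor, one of -0.58 (SE 0.06) and Trem2, a lipid-sensing receptor, one of -0.91 (SE 0.10).

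Some members of the list were not raised at all by Brg1sh_3364. Clec4d, a C-type lectin, changed from the control by -0.02 with Brg1sh_3364 and by 1.22 with the others, and Ms4a4c, of the Ms4a membrane family, by -0.06 and 1.09. Ccr2, the receptor that draws monocytes into tissue, stood at 8.43 and 8.15 with Brg1sh_3364, 9.12 and 9.06 with Brg1sh_3232, 9.51 and 9.45 with Brg1sh_4935, and 9.20 to 9.25 in the controls. The others lay on either side of the control level, and Brg1sh_3364 was below it, with a difference of -0.998 (SE 0.07). Irf8, the transcription factor of monocyte and dendritic cell fate, stood at 10.96 and 10.96 with Brg1sh_3364, between 11.44 and 11.59 with the others and between 11.26 and 11.46 in the controls. Its difference was -0.57 (SE 0.06), and its change from the control was -0.40 with Brg1sh_3364 and 0.17 with the others, both called. C5ar1, the receptor for complement fragment C5a, was higher by 0.76 (SE 0.04), one of the 2 members called higher beside Clec4a2. Itgam, the CD11b integrin chain, differed by 0.05 (SE 0.04, limma adjusted p = 0.483). Itgax, the CD11c chain, had a difference of -0.63 (SE 0.19) that was not called (adjusted p = 0.0722). The number of lower calls was 13 without replicate 1 and 13 without replicate 2 of Brg1sh_3364, and 16 without replicate 2 of Brg1sh_4935. The median lay between -0.24 and -0.16 without each knockdown array.

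Markers of other lineages were called in part. Over all genes 6.35% were called higher and 4.2% lower. Of 24 dendritic cell genes 5 were called lower (2 without replicate 1 of Brg1sh_3364) and 2 higher (1 without either Brg1sh_3364 array), among them Ly75, the endocytic receptor DEC-205. It stood at 9.38 and 9.37 with Brg1sh_3364, between 8.14 and 8.18 with the others and between 9.11 and 9.16 in the controls. The fall seen with the other hairpins was absent, and the difference was 1.21 (SE 0.04, limma adjusted p = 1.54e-06). Tcf4, a transcription factor of plasmacytoid dendritic cells, had a difference of -0.40 (SE 0.06). Of 33 lymphoid genes 3 were called lower and 0 higher, with the mean level of the list at 6.42 to 6.44 with Brg1sh_3364 and 6.50 to 6.55 with the others. Cd28 and Cd79b had differences of -0.50 (SE 0.05) and -0.60 (SE 0.09). Il7r had one of -0.68 (SE 0.17, adjusted p = 0.034) against the mean of the others, but 0.03 against Brg1sh_3232. It was not called without either array of Brg1sh_3364 or of Brg1sh_4935, or without control replicate 2 (adjusted p up to 0.171). Of 18 erythroid and megakaryocyte genes 2 were called higher and 0 lower. These were Gp9, of the platelet von Willebrand receptor, and Tfr2, a transferrin receptor. Gp9 was lost without any 1 of the 6 knockdown arrays (adjusted p up to 0.179). Tfr2 was lost without any of them but replicate 2 of Brg1sh_3364, and without control replicate 2 (adjusted p up to 0.277).

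**Figure D4:**
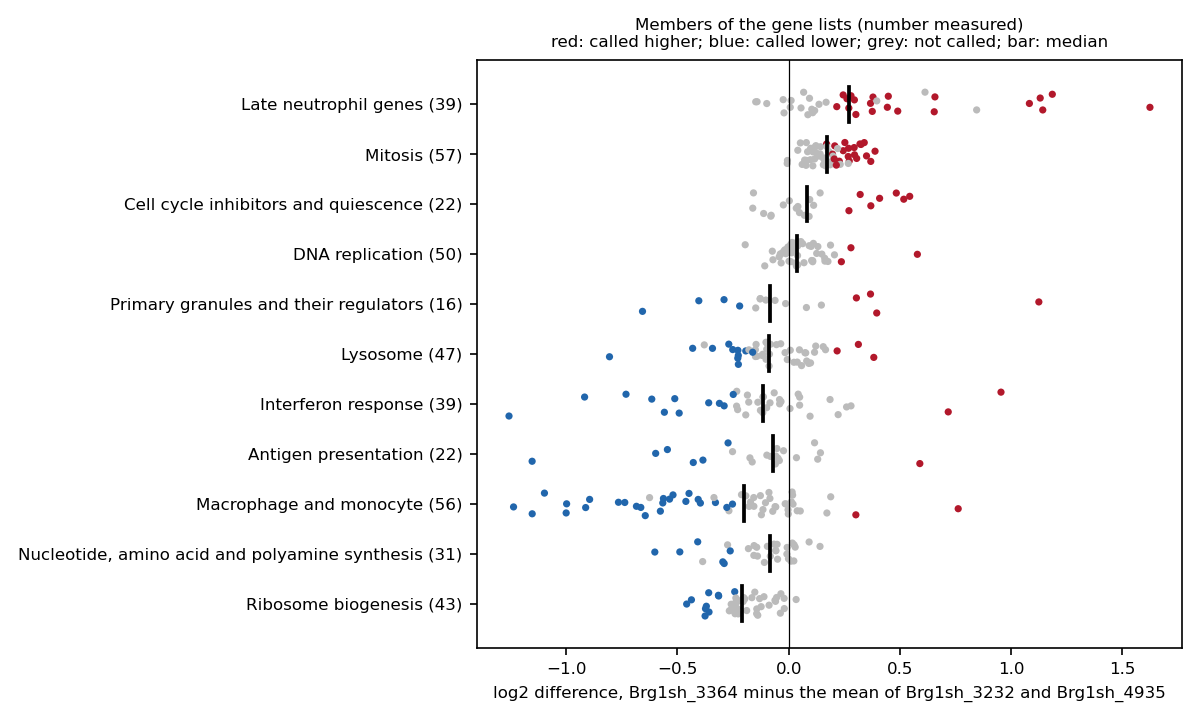
Each point is a measured member of a gene list, placed by its log2 difference between Brg1sh_3364 and the mean of the other hairpins; black bars are list medians. Medians are 0.27 for late neutrophil genes, 0.17 for mitosis, -0.20 for macrophage and monocyte genes and -0.21 for ribosome biogenesis.

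Genes of the interferon response, which encode antiviral proteins and their regulators, were split. Of 39 measured members 11 were called lower with Brg1sh_3364 and 2 higher, against 4.2% and 6.35% of all genes. The median difference was -0.12. Against Brg1sh_3232 alone 6 were called lower and 2 higher (median -0.09), where 3.84% and 5.81% of all genes were. Against Brg1sh_4935 alone 12 were called lower and 2 higher (median -0.21), where 3.1% and 4.51% of all genes were. From the control the list's median change was 0.17 with Brg1sh_3364 and 0.31 with the others. Usp18, a protease that removes the ubiquitin-like Isg15, stood at 9.25 and 9.09 with Brg1sh_3364, 9.50 and 9.83 with Brg1sh_3232, 10.45 and 10.56 with Brg1sh_4935, and 7.73 to 8.03 in the controls. Its difference was -0.92 (SE 0.11, limma adjusted p = 0.00105), made up of -0.50 against Brg1sh_3232 and -1.34 against Brg1sh_4935, and its call was lost with the others pooled as 1 group. Ifitm3, a membrane protein that hinders virus entry, stood at 10.11 and 9.85 with Brg1sh_3364, 10.71 and 11.19 with Brg1sh_3232, 11.49 and 11.56 with Brg1sh_4935, and 10.55 to 10.996 in the controls. It changed from the control by -0.74 with Brg1sh_3364 and by 0.51 with the others, both called. Gbp3, Xaf1 and Oas1a had differences of -0.73 (SE 0.12), -0.62 (SE 0.10) and -0.51 (SE 0.09). Each was lost without 1 of the Brg1sh_3364 arrays (adjusted p up to 0.0625, 0.0705 and 0.101).

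The 2 higher members were Ifih1, the double-stranded RNA sensor MDA5, and Samd9l, an antiviral and growth-restricting protein. Ifih1 stood at 10.61 and 10.62 with Brg1sh_3364 and between 9.85 and 9.94 on all 7 other arrays, so that it was raised by this hairpin and not detectably by the others (change from the control 0.01). Its difference was 0.72 (SE 0.05, limma adjusted p = 8.85e-05). Samd9l was higher by 0.95 (SE 0.12), with a change of 0.02 from the control with the others. The list had 5 lower and 2 higher calls without either Brg1sh_3364 array. Of 22 antigen presentation genes 6 were called lower and 1 higher, against 4.2% and 6.35% of all genes. H2-Ob, a chain of the class II chaperone H2-O, had a difference of -1.15 (SE 0.11), H2-DMa one of -0.60 (SE 0.08) and the immunoproteasome gene Psmb8 one of -0.43 (SE 0.05). Cd80, a costimulatory ligand, was higher by 0.59 (SE 0.07), and by 0.64 on its second probe set.

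Promoter sequences, from 250 bases before to 50 after the start in RefSeq for GRCm38.p6, were found for 15562 of the genes tested. They were searched on both strands for the interferon-stimulated response element (GAAA, any 2 bases, GAAA), the E-box CACGTG bound by Myc with Max, the C/EBP site TTGCNNAA and the PU.1 site GAGGAAGT. Matches of different motifs may overlap. The first was in 15 of 29 interferon genes with a promoter (51.7%), against 3.89% of all genes tested and 3.44% of the 32851 promoters of the table. It was in 6 of the 9 called lower and in 1 of the 2 called higher, so members moving in opposite directions held it. The E-box was in 11 of 38 ribosome biogenesis genes (28.9%), 2 of the 9 called lower among them, against 9.52% of genes tested and 7.15% of all promoters. The C/EBP site was in 9 of 32 late neutrophil genes (28.1%), 3 of the 17 called higher among them, against 11.3% and 10.8%. The PU.1 site was in 3 of 42 macrophage genes (7.14%), 1 of the 18 called lower among them, against 3.25% and 3.2%. A match describes these letters only. The promoters below are shown because their genes carry these counts, with motif matches in capitals. Ifitm3 (chr7:141010695-141010994, minus strand) was lower and Ifih1 (chr2:62646206-62646505, minus strand) higher with Brg1sh_3364, and both hold the interferon motif. Nop2 (chr6:125131633-125131932, plus strand), lower with Brg1sh_3364, holds the E-box, and Ltf (chr9:111019042-111019341, plus strand), higher with Brg1sh_3364, the C/EBP site. Each runs 5′ to 3′ along its gene.
Ifitm3: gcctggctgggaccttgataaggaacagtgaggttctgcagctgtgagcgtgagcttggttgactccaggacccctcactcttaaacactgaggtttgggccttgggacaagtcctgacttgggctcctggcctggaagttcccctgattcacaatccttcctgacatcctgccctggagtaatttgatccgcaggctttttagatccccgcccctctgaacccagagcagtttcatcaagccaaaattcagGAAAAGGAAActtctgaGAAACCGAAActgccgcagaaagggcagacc
Ifih1: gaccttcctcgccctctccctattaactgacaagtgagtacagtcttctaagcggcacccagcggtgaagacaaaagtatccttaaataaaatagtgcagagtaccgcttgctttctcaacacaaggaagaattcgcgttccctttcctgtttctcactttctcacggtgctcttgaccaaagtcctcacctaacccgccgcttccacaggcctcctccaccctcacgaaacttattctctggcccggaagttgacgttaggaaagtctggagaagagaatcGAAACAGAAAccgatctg
Nop2: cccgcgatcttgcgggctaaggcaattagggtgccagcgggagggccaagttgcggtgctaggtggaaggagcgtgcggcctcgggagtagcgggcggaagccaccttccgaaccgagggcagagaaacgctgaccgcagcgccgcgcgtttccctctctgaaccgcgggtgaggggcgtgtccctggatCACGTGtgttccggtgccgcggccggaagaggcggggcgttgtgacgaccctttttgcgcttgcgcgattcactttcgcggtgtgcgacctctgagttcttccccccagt
Ltf: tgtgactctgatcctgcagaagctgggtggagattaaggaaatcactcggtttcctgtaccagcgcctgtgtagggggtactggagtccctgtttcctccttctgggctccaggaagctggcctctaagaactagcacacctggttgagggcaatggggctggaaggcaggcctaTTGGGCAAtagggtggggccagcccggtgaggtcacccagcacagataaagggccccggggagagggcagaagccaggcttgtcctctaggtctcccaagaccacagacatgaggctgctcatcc

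In 3 cell cycle lists all calls were on the higher side. Of 57 measured mitosis genes, which build the spindle, kinetochore and cleavage furrow, 21 were called higher with Brg1sh_3364 (6.35% of all genes were) and 0 lower, with a median difference of 0.17. Against the control, 50 were called lower with the other hairpins (median -0.34) and 19 with Brg1sh_3364 (median -0.13). Ndc80, a kinetochore subunit, stood at 10.50 and 10.38 with Brg1sh_3364, 10.05 and 9.87 with Brg1sh_3232, 10.18 and 10.20 with Brg1sh_4935, and 10.43 to 10.51 in the controls. Brg1sh_3364 thus overlapped the controls while the others lay below, and the difference was 0.37 (SE 0.06, limma adjusted p = 0.00546), with 0.48 against Brg1sh_3232 and 0.26 against Brg1sh_4935, the latter not called (adjusted p = 0.0602). Anln, a scaffold of the cleavage furrow, was higher by 0.27 (SE 0.05) and the kinesin gene Kif4 by 0.30 (SE 0.06). The list's calls rest on few arrays. Without replicate 1 of Brg1sh_3364 it had 0 calls, including Ndc80 (adjusted p = 0.0765), Anln (0.0827) and Kif4 (0.108). It had 7 without replicate 2 of Brg1sh_3364, 9 and 6 without replicates 1 and 2 of Brg1sh_4935, and 13 without replicate 2 of Brg1sh_3232. The counts were 14 after a further quantile normalization and 27 with arrays centred on their medians. The median stayed between 0.14 and 0.21, and in 40 of the 57 both arrays lay above all 4 others, where 16.9% of all genes did.

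Of 50 DNA replication genes 3 were called higher, a share near the 6.35% of all genes, and 0 lower, with a median of 0.04. The count was 1 without either Brg1sh_3364 array, 2 without replicate 1 or 2 of Brg1sh_4935, and 6 higher and 1 lower without replicate 1 of Brg1sh_3232. From the control their median change was -0.21 with Brg1sh_3364 and -0.25 with the others. E2f2, an activating E2F factor, was higher by 0.58 (SE 0.08), while Prim1, a primase subunit, and the phosphatase gene Cdc25a, at 0.28 (SE 0.06) and 0.24 (SE 0.05), were lost without either Brg1sh_3364 array, and Prim1 without either Brg1sh_4935 array too (adjusted p up to 0.162 and 0.1). Genes of cell cycle arrest and quiescence were called in the same direction as those of mitosis. Of 22 measured, 7 were called higher and 0 lower, with a median of 0.08 and medians from the control of 0.41 with Brg1sh_3364 and 0.26 with the others. Klf2, a factor of quiescent leukocytes, was higher by 0.48 (SE 0.06, limma adjusted p = 0.00156). Btg2, an antiproliferative p53 target, stood at 10.01 and 9.91 with Brg1sh_3364 and between 9.27 and 9.60 on all 7 other arrays, a difference of 0.52 (SE 0.08). Cdkn1b, which encodes the inhibitor p27, was higher by 0.27 (SE 0.05). Against Brg1sh_4935 alone Cdkn1b differed by 0.18 and was not called (adjusted p = 0.132). Btg2 was lost without replicate 1 of Brg1sh_3364 (adjusted p = 0.0729) and Cdkn1b without either (up to 0.114), and the list had 1 call without replicate 1 and 4 higher and 1 lower without replicate 2.

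Some genes of glucose handling were higher with Brg1sh_3364. Slc2a3, the glucose transporter Glut3, stood at 11.12 and 11.15 with Brg1sh_3364, 9.93 and 9.89 with Brg1sh_3232, 10.27 and 10.37 with Brg1sh_4935, and 9.90 to 10.11 in the controls. It was 2.03-fold higher than with the other hairpins (log2 difference 1.02, SE 0.06, limma adjusted p = 6.8e-05), and the others changed by 0.10 from the control. Bnip3, a mitophagy receptor induced by hypoxia, was higher by 0.39 (SE 0.04). Aldoc, an aldolase, and Slc16a3, a lactate exporter, were higher by 0.71 (SE 0.08) and 0.34 (SE 0.04), and were also called higher than the control with the others, by 0.34 and 0.19. In all, 8 of 30 glycolysis and hypoxia genes were called higher and 3 lower, with a median of 0.06. Over all genes 6.35% were called higher and 4.2% lower. The higher calls numbered 4 without replicate 1 of Brg1sh_3364 and 5 without replicate 1 of Brg1sh_3232 or either array of Brg1sh_4935. The lower calls numbered 1 without either array of Brg1sh_3364 or replicate 1 of Brg1sh_4935. Egln3, a hydroxylase that marks hypoxia-inducible factors for decay, was among the lower ones, at -0.51 (SE 0.07).

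Lysosome, stress and inflammatory genes were mostly lower where called. Over all genes 4.2% were called lower and 6.35% higher. Of 47 lysosome genes 11 were called lower (median -0.09) and 3 higher, the latter near the share of all genes. Mitf, a factor that drives lysosome genes, had a difference of -0.43 (SE 0.05), and Gla, a galactosidase, one of -0.34 (SE 0.05). The second probe set of Mitf, dim at a mean level of 3.95, differed by 0.05. Lgmn, the protease legumain, stood 2.23 above the control with Brg1sh_3364 and 3.04 with the others; the difference of -0.81 (SE 0.13), which was -0.51 and not called against Brg1sh_3232 alone (adjusted p = 0.0652), was lost without either Brg1sh_3364 array (adjusted p up to 0.062), where the list had 3 lower calls and 1 higher. It had 7 and 5 lower calls without replicates 1 and 2 of Brg1sh_4935 and 7 without replicate 2 of Brg1sh_3232. Of 26 heat shock and oxidative stress genes 6 were called lower and 1 higher. Mt2, a metallothionein, had a difference of -0.59 (SE 0.08), while Osgin1, an Nrf2 target, was higher by 0.41 (SE 0.05). The lower calls fell to 1 without replicate 2 of Brg1sh_3364, and to 3 without replicate 1 of Brg1sh_3364 or of Brg1sh_4935. Of 38 inflammatory genes 6 were called lower and 3 higher, with 2 lower without replicate 2 of Brg1sh_3364 or of Brg1sh_4935 and 3 without replicate 1 of Brg1sh_3364. The higher calls were 1 without replicate 1 of each Brg1 hairpin and without replicate 2 of Brg1sh_4935. The chemokine gene Ccl9 and the cytokine subunit gene Il12a had differences of -0.76 (SE 0.07) and -0.69 (SE 0.07), and Il1rn, the interleukin-1 receptor antagonist, was higher by 0.55 (SE 0.05). Of 32 genes of the integrated stress response and 27 of the unfolded protein response, 5 and 4 were called lower and 0 higher. Both counts were 2 without replicate 2 of Brg1sh_3364 and without replicate 1 of Brg1sh_4935, and 3 and 2 without replicate 1 of Brg1sh_3364. The first was 3 without replicate 2 of Brg1sh_3232 or of Brg1sh_4935.

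Progenitor and leukaemia genes were called in both directions, 4 of 36 higher and 6 lower, against 6.35% and 4.2% of all genes. Without any 1 knockdown array 2 were called higher, and without either Brg1sh_3364 array 3 lower. Eya1, a transcriptional cofactor and phosphatase, stood at 10.06 and 9.96 with Brg1sh_3364, 7.71 and 7.96 with Brg1sh_3232, 8.55 and 8.73 with Brg1sh_4935, and 6.30 to 6.47 in the controls. Every hairpin raised it, and Brg1sh_3364 the most (difference 1.77, SE 0.09, limma adjusted p = 2.07e-05). Ikzf2, the Ikaros family member Helios, was higher by 0.99 (SE 0.07). Gfi1b, a transcriptional repressor required for erythroid and megakaryocyte development, stood at 9.72 and 9.52 with Brg1sh_3364, 10.56 and 10.66 with Brg1sh_3232, 11.34 and 11.21 with Brg1sh_4935, and 8.70 to 9.30 in the controls. It was 2.5-fold lower than with the others (difference -1.32, SE 0.14). Gata2, a stem cell and mast cell factor, and Bcl2, which blocks apoptosis, changed by 0.02 and 0.00 from the control with Brg1sh_3364 and by 0.60 and 0.44 with the others, with differences of -0.58 (SE 0.09) and -0.44 (SE 0.06). Hoxa9, Meis1, Myb and Kit were not called. Hoxa9 differed by 0.01 (SE 0.06, adjusted p = 0.946) and Myb by -0.08 (SE 0.04, adjusted p = 0.25). Meis1 differed by 0.22 (SE 0.07, adjusted p = 0.0741) and Kit by 0.17 (SE 0.05, adjusted p = 0.0557). In Meis1 and Kit both arrays of Brg1sh_3364 lay above all 4 others. Meis1 and Kit were called with arrays centred on their medians, but not after a further quantile normalization. From the control Meis1 changed by 0.37 with Brg1sh_3364 (limma adjusted p = 0.0048) and by 0.15 with the others (limma adjusted p = 0.117).

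A Y-linked gene had the second largest rise. Eif2s3y, a subunit of the initiation factor that brings the first tRNA to the ribosome, stood at 9.30 and 9.27 with Brg1sh_3364, 6.02 and 6.40 with Brg1sh_3232, 7.90 and 7.90 with Brg1sh_4935, and 4.78, 4.88 and 5.08 in the controls. No groups overlapped, and Brg1sh_3364 was 4.68-fold above the mean of the others (difference 2.23, SE 0.11, limma adjusted p = 2.07e-05). In the controls Eif2s3y lay under 5.245, the bound of the lowest 10% of genes by mean level. The Y-linked genes Kdm5d and Uty differed by -0.12 (SE 0.09) and -0.01 (SE 0.10) and were not called. Of the 7 measured genes on the list of Y-linked genes and Xist, 5 lay below the median gene level. Among 13 measured genes that process or use small RNAs, 1 was called, a share near the 6.35% of all genes called higher. This was Tnrc6a, a partner of Argonaute proteins, higher by 0.24 (SE 0.05). It was lost without replicate 2 of Brg1sh_3364 or of Brg1sh_4935 (adjusted p up to 0.117). The sequences of the hairpins were not used here.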

How the data were processed

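Total RNA of 9 RN2 samples was biotin-labelled and hybridised to Affymetrix arrays, 1 per sample, per the labels' protocols. The deposited log2 values were summarised by the authors with RMA, per the submitters' processing notes; for its version and the array's build the entry is "not given in the sources used here". Slide and scan date were not tested, as no scanner output entered. The platform annotation gave 1 symbol for 21640 of 34760 probe sets, several for 1321 and none for 11799. Of those with 1 symbol, 21553 were found in RefSeq by Entrez ID, and 0 symbols were altered. The probe set with the highest mean represented each of 19937 genes. limma 3.58.1 in R 4.3.3 was fitted to group means on all 9 arrays, with Benjamini-Hochberg adjustment over all genes and a threshold of 0.05; the fit was tested on simulated data. Replicate numbers were not used to pair the samples in the main fit.

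Genes named were 11 fixed genes, the 15 largest rises and falls outside the range of the other knockdown arrays, up to 4 called members per list by p, and the 5 largest differences of each kind; other list members are named where their list is described, and were chosen after their values were seen. Members and the 29 lists were chosen with earlier results of these data known. Alternatives covered scaling, dim genes, probe sets, variance model, array weights, blocking and single arrays left out.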

Additional observations from a re-analysis of the deposited data

Results flagged for a closer look

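Of the 2103 genes called between Brg1sh_3364 and the other hairpins, 62 (2.95%) were called against the Renilla control in opposite directions by these groups. The difference between the effects is the limma contrast among knockdown arrays. All 62 passed that contrast by selection, so it is no further test of them. The controls cancel from that difference but enter its estimate of spread.

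The 5 largest such differences were in membrane, protease and cytoskeletal genes. Asprv1, a retroviral-like aspartic protease, differed by 1.50, with changes from the control of 1.21 with Brg1sh_3364 and -0.29 with the mean of the others. The latter came from Brg1sh_3232 (-0.65), as Brg1sh_4935 changed by 0.07 and was not called (limma adjusted p = 0.672). Spint2, a protease inhibitor, differed by 1.49, with changes of 0.96 and -0.53. The latter was made up of -0.67 with Brg1sh_3232 and -0.39 with Brg1sh_4935, not called singly (limma adjusted p = 0.0779). Septin1, a filament-forming GTPase, differed by 1.32, from 0.49 and -0.83, and Ffar2, a receptor for short-chain fatty acids, by 1.24, from 0.64 and -0.59. Ifitm3 went the other way, with a difference of -1.26 from -0.74 and 0.51. The latter was made up of 0.80 with Brg1sh_4935 and 0.23 with Brg1sh_3232, not called singly (limma adjusted p = 0.413). In Spint2, Septin1 and Ffar2, control replicate 3 was the lowest control, at 8.86, 9.54 and 8.49.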

How the results depend on the processing

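The count of 2103 genes between Brg1sh_3364 and the others was 944 at adjusted p below 0.01 and 55 at 2-fold or more, and ranged from 699 to 2415 with single arrays left out. With the 6 knockdown arrays alone it was 2337. With the replicate number as a block it was 2294, and replicate differences correlated at -0.07, -0.02 and -0.05 between Brg1 hairpins. Between the controls and Brg1sh_3232, Brg1sh_3364 and Brg1sh_4935 they correlated at 0.26, -0.04 and 0.03. With that block the counts against the control fell from 5133 to 4528 with Brg1sh_3364 and from 5118 to 4298 with the mean of the others. With every probe set tested, Brg1sh_3232 had 430 calls against its partners and Brg1sh_4935 had 112; with array weights Brg1sh_4935 had 1093, and centring moved its share of higher calls from 53.8% to 40.5%. Left-out arrays were not run for these latter contrasts. The cause of these shifts was not tested. Of 129 called genes among the 136 named by rule besides Smarca4, 79 kept direction and call, and 129 direction, under all alternatives that keep both other hairpins. Against Brg1sh_3232 alone Smarca2 was -0.0616 and Il7r 0.0273. Against Brg1sh_4935 alone Hoxa9 was -0.0803, Cxcr2 -0.019, Mpo 0.0547 and Elane 0.0764. Scaling moved the median of all genes by at most 0.03. With 2 arrays a hairpin, small differences were not detectable, and dim probe sets carry little signal over background.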

Other observations

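Among the 13120 probe sets without a single gene symbol, 275 (2.1%) were called between Brg1sh_3364 and the other hairpins, 156 higher and 119 lower, when every probe set was tested. Of the probe sets with a symbol, 5.81% were called in the same fit.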
